A study of Mus musculus with 16 samples.

Results

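The 10 genes Fos, Fosb, Fosl2, Jun, Junb, Jund, Batf, Batf3, Atf3 and Maff encode AP-1 proteins and their relatives, and were taken as a set because they are early-response genes whose loci can open when cells are handled. Peaks from 16 ATAC-seq libraries that overlapped by 1 bp or more were joined into regions, and every region that overlapped a gene body or the 20 kb on either side was assigned to that gene. This gave 171 regions, among 296215 merged regions in all, and no region belonged to more than 1 of the 10 genes. A peak was present in all 16 lists at 53 of the 171 regions (31.0%), against 39310 of all regions (13.3%). A further 53 of the 171 were seen in 1 library.

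AP-1 is a dimer of leucine-zipper proteins in which a FOS protein pairs with a JUN protein, or JUN proteins pair with each other, on short DNA elements. Mitogens and stress act through kinase cascades and serum response factor, which binds CArG boxes, so that Fos, Fosb, Junb and Atf3 are transcribed within minutes. BATF and BATF3 lack a transactivation domain and partner with JUN proteins in immune cells, ATF3 is a stress-induced member of the ATF branch, and MAFF is a small MAF protein.

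The cells were mouse HSPCs, the stem and progenitor cells of blood, sorted from marrow as lineage- Sca1+ c-Kit+, and ATAC-seq marks DNA that a transposase can reach in them. There were 4 genotypes with 4 libraries each. All mice carried Ep300 fl/fl and had received poly(I:C). WT mice had neither deletion, P300KO mice had lost p300 (Ep300), a histone acetyltransferase, through the interferon-inducible Mx1-Cre, TET2KO mice were germline Tet2-/-, and P300KO_TET2KO mice had both. Cre was therefore present only in the genotypes without p300, and the 2 cannot be told apart. Each library pooled cells of 2 age-matched mice of the same genotype. For each library 200000 HSPCs were sorted, frozen, thawed and treated with DNase I at 37°C to clear dead cells, and 50000 viable cells were used. This handling was shared by all groups. In every genotype the labels of replicates 1 and 2 refer to a combined peak file, which those of replicates 3 and 4 do not mention. The former 8 libraries are called deposit set 1 and the latter 8 deposit set 2. The labels do not state what differed between the sets.

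Lists of set 1 held 86039 to 110055 peaks and those of set 2 held 130610 to 137335. Read depth per library is unknown here, so where a list has no peak the site was not detected, which is not the same as closed. WT replicate 1 stood apart, with 45.0% of its peaks at a q of 0.01 or better against 63.2% to 97.4% in the other 15 lists. Accessibility was compared as the rank of a region within its own list, with rank 1 the smallest p-value, and tested on the −log2 of that rank, so that a negative difference means a weaker rank and -1 means a doubling of the rank number. HSPC marker promoters had a peak in all 16 lists for 9 of 10 genes, of which 3 (Meis1, Gata2 and Cd48) ranked weaker in set 2, and Ly6a (Sca1) had one in 15. Of the lineage markers, Itgam had a promoter peak in all lists, 3 had none in any (Ms4a1, Ly6g and Ncr1), and 5 had peaks mostly in set 2, such as Cd8a in 0 of 8 and 8 of 8 libraries of sets 1 and 2. Of 5 markers outside blood none had a promoter peak in all 16 lists, Neurod1 had one in 14 and Myh6 in 1.

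Under the summits, full AP-1 elements were about as frequent as over all shared regions, and CArG boxes, the sites of serum response factor, were found at 4 regions. In the 300 bp around the median summit, TGACTCA, the canonical AP-1 element (read on both strands, so also as TGAGTCA), was found at 4 of the 53 regions shared by all lists (7.55%) and at 7.06% of all 39310 shared regions. The 4 are the Fosl2 promoter, a region over a start of D730003I15Rik upstream of Atf3, and 2 regions upstream of Fosb. The cyclic AMP response element TGACGTCA was found at 1 of 53 (1.89%) and at 1.51% of all. A CArG box was found at 4 of 53 (7.55%) and at 1.30% of all, a description of sequence with no test. These are a region downstream of Fos, the region over the Fosb start, the Junb promoter region, and a region upstream of Junb that lies over a start of Hook2. In the RefSeq promoter windows, 250 bases before to 50 after a start, all 10 genes matched, TGACTCA was in 0 of 10 (5.95% of genes with a window), a CArG box in 0 of 10 (1.81%), and TGACGTCA in 1 of 10, Maff (2.03%), where it begins 29 bases before one of 3 RefSeq starts. These counts hold for the windows only. The Fosb CArG box begins at chr7:19310308, outside its window, which ends at 19310295. The Jund window, chr8:70697489-70697788, lies upstream of the annotated Jund start at 70698949. The first 3 sequences are shown for their CArG boxes, in capitals, and the last 2 because their rank was lower without p300. All are on the plus strand of GRCm38.p6 (mm10), from RefSeq, and the Junb and Maff promoter windows are shown only outside annotated exons. For Fosb, "over the start" names the region. Its printed window lies wholly upstream of the annotated start, which is at chr7:19310051 on the minus strand.
Fos, 12146 bp downstream of the start, chr12:85485984-85486283: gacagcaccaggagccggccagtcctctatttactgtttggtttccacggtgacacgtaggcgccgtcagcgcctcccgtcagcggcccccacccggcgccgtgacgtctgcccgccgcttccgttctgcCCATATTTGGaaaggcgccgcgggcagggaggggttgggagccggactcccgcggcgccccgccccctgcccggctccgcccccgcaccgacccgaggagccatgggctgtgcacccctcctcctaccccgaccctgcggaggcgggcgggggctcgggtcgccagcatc
Fosb, over the start, chr7:19310204-19310503: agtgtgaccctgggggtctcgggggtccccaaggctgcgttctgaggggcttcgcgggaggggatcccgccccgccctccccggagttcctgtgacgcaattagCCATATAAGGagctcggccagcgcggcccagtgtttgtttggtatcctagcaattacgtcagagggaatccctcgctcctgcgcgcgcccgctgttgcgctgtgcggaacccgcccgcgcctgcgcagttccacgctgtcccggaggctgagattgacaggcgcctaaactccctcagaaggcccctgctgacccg
Junb promoter region, chr8:84976543-84976788: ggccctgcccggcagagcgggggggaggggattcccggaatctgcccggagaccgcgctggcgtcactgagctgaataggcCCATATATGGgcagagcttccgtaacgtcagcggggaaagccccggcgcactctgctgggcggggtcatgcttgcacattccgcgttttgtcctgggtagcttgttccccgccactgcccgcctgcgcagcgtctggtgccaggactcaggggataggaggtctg
Maff promoter region, chr15:79347324-79347519: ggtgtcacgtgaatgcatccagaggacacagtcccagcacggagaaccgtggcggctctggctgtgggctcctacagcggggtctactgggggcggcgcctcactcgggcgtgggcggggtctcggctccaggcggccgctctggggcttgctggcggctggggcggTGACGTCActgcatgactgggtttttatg
Maff, 11156 bp upstream of the start, chr15:79335235-79335534: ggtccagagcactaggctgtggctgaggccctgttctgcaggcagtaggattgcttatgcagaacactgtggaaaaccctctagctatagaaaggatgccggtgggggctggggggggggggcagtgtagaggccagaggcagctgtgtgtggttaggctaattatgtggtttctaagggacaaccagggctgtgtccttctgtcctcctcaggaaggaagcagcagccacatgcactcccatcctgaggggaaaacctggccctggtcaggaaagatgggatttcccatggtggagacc
Capitals in the Maff promoter mark TGACGTCA. The window upstream of Maff holds none of the 3 motifs.

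All 10 genes had an accessible promoter region in all 16 libraries, whatever the genotype. The promoter region was the region within 1 kb of an annotated start that had a peak in most lists and then the best mean rank. By geometric mean rank over the 16 lists the FOS and JUN genes other than Junb were strongest. It was 4287 for Jund, which encodes the steadily expressed JUN protein, 6026 for Jun, 6077 for Fos, 6219 for Fosl2 and 6373 for Fosb. Maff followed at 10281 and Atf3 at 13360, and the immune-cell genes Batf (18335) and Batf3 (27156) were last. The ranges over libraries of Jun (3488 to 9191), Fos (4290 to 8610), Fosl2 (4571 to 7988) and Fosb (3610 to 11625) overlapped throughout, so that these 4 could not be ordered. Jund ran from 2438 to 5846, Junb from 5885 to 13069, Maff from 5312 to 17498 and Atf3 from 9455 to 18710. The Junb range lay inside that of Maff, so that Junb and Maff could not be ordered either. Maff also overlapped every other FOS and JUN gene. Batf (14358 to 25705) and Batf3 (20301 to 33297) overlapped each other but no FOS or JUN gene. Rank compares regions of unequal width and is not a level of transcription.

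**Figure D1:**
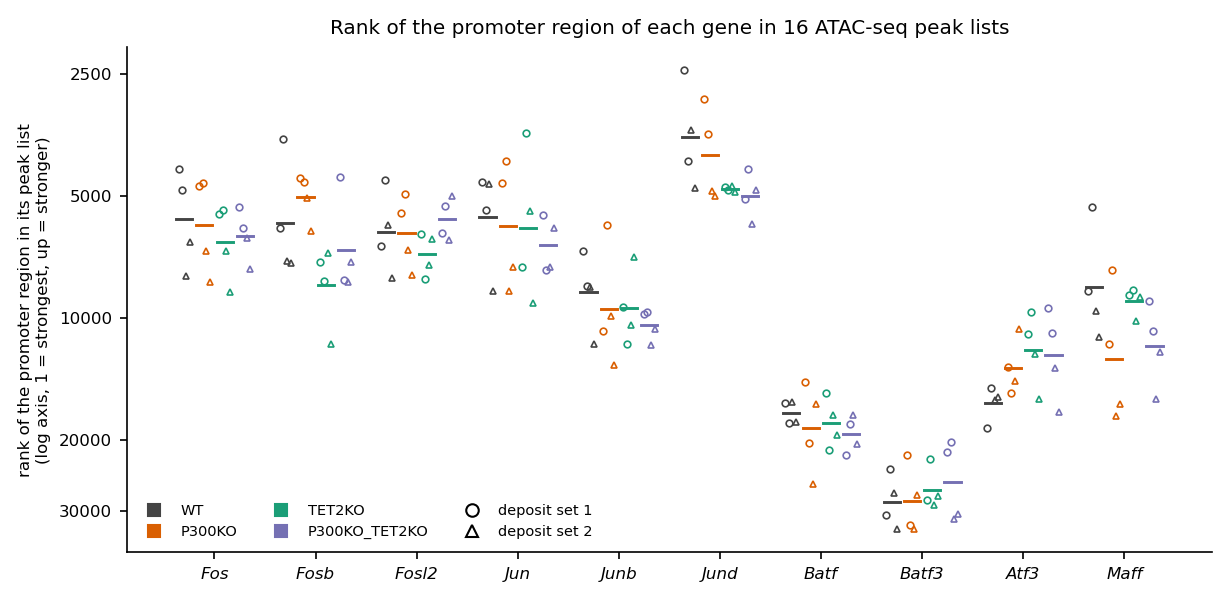
Rank of the promoter region of each gene (x axis) in each of the 16 lists (y axis, logarithmic, stronger ranks upwards), with genotype as colour, deposit set as symbol and a bar at the geometric mean of 4 libraries. Jund sits strongest at 2438 to 5846 and Batf3 weakest at 20301 to 33297, and triangles (set 2) mostly lie below circles (set 1) for Fos and Maff.

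The Atf3 promoter region lay over an internal start, with its centre 34901 bp downstream of the most upstream annotated start. Near the upstream start, a region centred 1294 bp inside the gene had a peak in 13 of 16 lists (5 of set 1 and 8 of set 2) with a geometric mean rank of 85099, and a closer one, at 358 bp, in 1 list. Fosb and Junb each had more than 1 region near a start. The Fosb promoter region lay inside the gene, 541 bp from the nearest start, and a second region, over the start, had a geometric mean rank of 9139. The Junb promoter region lay over an annotated start 2218 bp downstream of the first, and the region over the first start ranked 12502.

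No promoter region was called in a contrast of single genotypes. For Fos the ranks in replicates 1 to 4 were 4290, 4838, 7853 and 6501 in WT, and 4721, 4633, 6810 and 8128 in P300KO. At Fos they were 5527, 5417, 6847 and 8610 in TET2KO, and 5329, 5986, 6335 and 7565 in P300KO_TET2KO. Every library of set 2 was weaker than every library of set 1, and the genotypes overlapped. The effect of p300 loss over both Tet2 backgrounds at Fos was 0.00 ± 0.11 (SE, −log2 rank, limma adjusted p = 0.995), with a 95% interval from -0.23 to 0.23. For Jun the same effect was -0.11 ± 0.17 (interval -0.46 to 0.25). For Junb it was -0.14 ± 0.15 (interval -0.44 to 0.16).

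Across the 4 contrasts of single genotypes, 0 of the 53 shared regions passed an adjusted p of 0.05 in limma, fitted on all 39310 shared regions with the deposit set as a term. The share called over all regions was 0.0458% for P300KO_TET2KO against TET2KO, 0.768% for P300KO against WT, 0.00509% for TET2KO against WT and 0.173% for P300KO_TET2KO against P300KO. The regions with an unadjusted p under 0.05 numbered 6, 8, 3 and 6 of 53 in these contrasts (11.3%, 15.1%, 5.66% and 11.3%), against 7.75%, 16.2%, 11.2% and 8.76% of all regions. Of the 10 promoter regions 0, 1, 3 and 1 had such a p, against 5.67%, 13.3%, 10.2% and 8.24% of all shared regions within 1 kb of a protein-coding start. None had an exact permutation p (70 regroupings, two-sided) under 0.05. Unlike limma, that test does not take the deposit set into account. The lowest exact p was 0.0571, for Atf3 in P300KO against WT and for Maff in P300KO_TET2KO against TET2KO, and the smallest the design allows is 0.0286. The region with the lowest adjusted p in any of these contrasts lay 19421 bp upstream of Junb, over a start of Hook2, and was higher in P300KO than in WT by 0.63 ± 0.18 (adjusted p = 0.0823). Without WT replicate 1, a region 16387 bp upstream of Batf passed in the same contrast (0.54 ± 0.14, adjusted p = 0.0481).

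Over both Tet2 backgrounds, 3 of the 53 regions passed, all of them lower without p300, where 2.83% of all shared regions passed in either direction and 1.7% were lower. That majority of lower calls over all regions (667 lower, 444 higher) turned with peaks ranked by fold enrichment (313 lower, 530 higher) and with regions in at least 8 lists (658 lower, 960 higher), and under each of these 1 region of the 10 windows was called, as lower. The 3 regions that passed were the Maff promoter region, a region 11156 bp upstream of Maff, and a region 12624 bp upstream of Batf. The contrast sets 8 libraries without p300 against 8 with it. Over all 53 regions the median difference was 0.00 (0.02 over all regions), and 10 had an unadjusted p under 0.05 (18.9%, against 17.4% of all). Within 1 kb of a protein-coding start 1 of 21 was lower and 0 higher, where 0.672% of all such regions were lower and 0.718% higher. More than 3 kb from every start 2 of 24 were lower and 0 higher, where 2.44% of all such regions were lower and 1.39% higher.

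At the Maff promoter (chr15:79347117-79348669, over a start of the gene that encodes a small MAF protein) the ranks in replicates 1 to 4 were 8589, 5312, 9610 and 11133 in WT and 8775, 8525, 10182 and 8865 in TET2KO. They were 11562, 7626, 17498 and 16306 in P300KO and 9076, 10783, 15848 and 12114 in P300KO_TET2KO. In set 2 the 4 libraries without p300 were weaker than all 4 with it, in set 1 P300KO replicate 2 lay among those with it, and over both sets the sides overlapped. The difference was -0.48 ± 0.13 (adjusted p = 0.0498). It was -0.59 ± 0.19 in the WT background and -0.37 ± 0.19 in the TET2KO background, and -0.33 within set 1 and -0.63 within set 2. The call ended with the replicate number as a block (adjusted p = 0.0561) and in 13 of the 16 fits that left out 1 library (adjusted p 0.0130 to 0.120 over the 16). It also ended with peaks ranked by fold enrichment (adjusted p = 0.211), with regions in at least 8 lists (0.0624) and without the set term (0.286).

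At the region upstream of Maff (chr15:79335031-79335898, intergenic, its nearest start that of Pla2g6 at 6641 bp) the ranks in replicates 1 to 4 were 16768, 10935, 7811 and 9549 in WT and 13930, 11641, 7668 and 8464 in TET2KO. Without p300 they were 20507, 15418, 11967 and 10753.5 in P300KO, the last a tie, and 16320, 20274, 11351 and 11631 in P300KO_TET2KO. In set 2 the 4 libraries without p300 were again weaker than all 4 with it, in set 1 WT replicate 1 lay among those without it, and over both sets the sides overlapped. The difference was -0.45 ± 0.11 (adjusted p = 0.0281), with -0.39 ± 0.16 in the WT and -0.51 ± 0.16 in the TET2KO background, and -0.45 within either set. It stayed past the threshold in 7 of 16 fits that left out 1 library (adjusted p 0.00520 to 0.0710), and ended with peaks ranked by fold enrichment (0.208) and without the set term (0.342).

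At the region upstream of Batf (chr12:85673705-85674386, intergenic) the ranks in replicates 1 to 4 were 29463.5, 21011, 22381 and 25242.5 in WT and 29628, 29797.5, 27482.5 and 22708 in TET2KO. They were 37562.5, 45357, 31007 and 26999 in P300KO and 37198.5, 41269, 34028 and 30472 in P300KO_TET2KO. Of the 8 libraries without p300, all but P300KO replicate 4 were weaker than every library with p300. The difference was -0.44 ± 0.11 (adjusted p = 0.0299), with -0.51 ± 0.16 in the WT and -0.38 ± 0.16 in the TET2KO background, -0.56 within set 1 and -0.32 within set 2. It stayed past the threshold in 8 of 16 fits that left out 1 library (adjusted p 0.0115 to 0.0767), and ended with regions in at least 8 lists (0.0618) and without the set term (0.147). The Batf promoter itself differed by -0.11 ± 0.12 (adjusted p = 0.692).

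The p300 effect was not shown to depend on Tet2 at any of the 3 regions. The difference between backgrounds was 0.22 ± 0.26 at the Maff promoter (adjusted p = 0.957), -0.12 ± 0.22 upstream of Maff (adjusted p = 0.971) and 0.12 ± 0.22 upstream of Batf (adjusted p = 0.971). This interaction was called at 0 of 53 regions and at 0% of all 39310 regions by limma, with an unadjusted p under 0.05 at 3 of 53 and at 2029 of all. Leaving out WT replicate 1, the library with the fewest strong peaks, kept all 3 calls. No region passed when any of WT replicate 3, P300KO replicate 3, TET2KO replicates 2 and 4, or P300KO_TET2KO replicates 2, 3 and 4 was left out, and 1 passed without P300KO replicate 1 or TET2KO replicate 3.

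**Figure D2:**
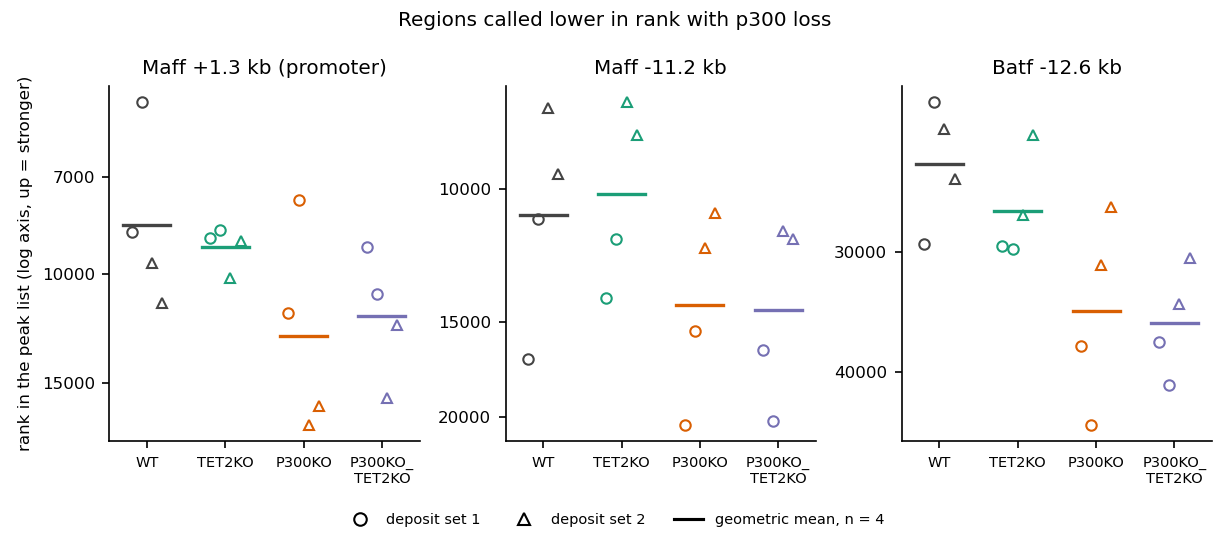
Rank in the list (y axis, logarithmic, stronger ranks upwards, a different scale in each panel) of the 3 regions called lower without p300, by genotype (x axis), with deposit set as symbol and a bar at the geometric mean of 4 libraries. The 2 genotypes without p300 lie lower on average in each panel, with geometric means of 12143 against 8705 at the Maff promoter, 14329 against 10466 upstream of Maff and 35036 against 25740 upstream of Batf.

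The strongest element of several loci was not the promoter. Of the regions more than 3 kb from every annotated start, the region 18456 bp upstream of Fos had a geometric mean rank of 1364, ahead of the Fos promoter (6077), as was the CArG-bearing region downstream of Fos (4195). The region 18706 bp into Batf, in an intron, had a geometric mean rank of 2791, ahead of the Batf promoter (18335). The Batf3 window held a region in an exon of Nsl1 at 6072, also ahead of the Batf3 promoter. At Jun the strongest distal region had a peak in 10 of 16 libraries (2 of set 1 and 8 of set 2). That Jun region was not in the limma fit, which took only regions with a peak in all 16 lists. None of the others was called for p300: the difference was 0.11 ± 0.23 upstream of Fos and 0.39 ± 0.25 in Batf, with adjusted p of 0.852 and 0.449. Leaving out 1 library moved the Fos value from -0.05 (without WT replicate 1) to 0.20, so that its sign was not settled. The Batf value was 0.15 ± 0.19 without P300KO replicate 1, the library at rank 734, and 0.24 ± 0.23 without WT replicate 1, and none of the 16 fits that left out 1 library called either region.

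**Figure D3:**
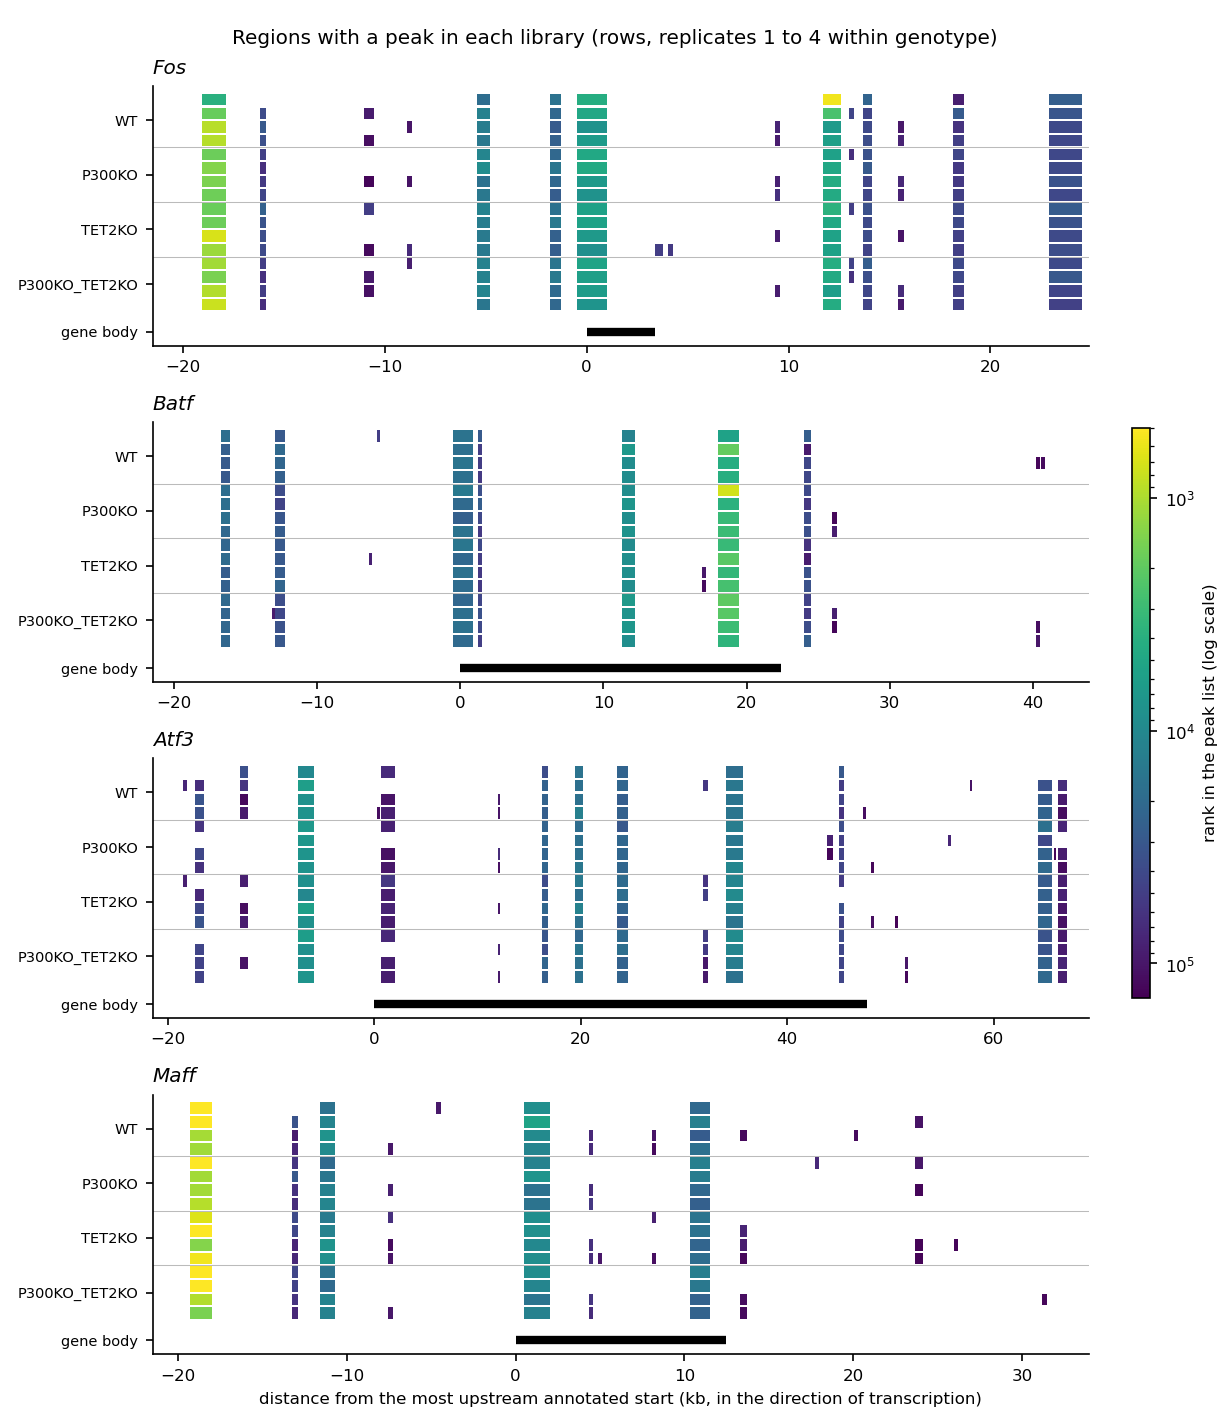
Regions with a peak in each library (rows, replicates 1 to 4 within each genotype) across the windows of Fos, Batf, Atf3 and Maff, by distance from the most upstream start in kb (x axis), coloured by rank on a logarithmic scale. The bands that run through all 16 rows number 8 for Fos, 7 for Batf, 5 for Atf3 and 4 for Maff, and the scattered short marks are weakly ranked regions seen in some libraries.

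Presence and absence of peaks separated genotypes at 2 of the 171 regions, both at Atf3. A region 12644 bp upstream of Atf3 (chr1:191230315-191231052) had a peak in 4 of 4 WT libraries and 0 of 4 P300KO libraries, at ranks of 35364.5, 60144, 124967 and 94128 in WT. It was seen in 3 of 4 TET2KO and 1 of 4 P300KO_TET2KO libraries. It was the 1 region of 144 lost in P300KO against WT, where 0.0276% of all regions with a peak in those libraries were gained or lost. A region within Atf3, 32042 bp from the upstream start (chr1:191185750-191186243), had a peak in 4 of 4 P300KO_TET2KO libraries, at ranks of 51599, 53995, 96772 and 95022, and in 0 of 4 P300KO libraries. It was seen in 1 WT and 2 TET2KO libraries. It was the 1 region of 133 gained in P300KO_TET2KO against P300KO (0.146% of all). No region was gained or lost in P300KO_TET2KO against TET2KO (0 of 138, 0.114% of all) or TET2KO against WT (0 of 147, 0.0255% of all). These weakly ranked regions carry no test, since 4 against 4 libraries cannot pass a corrected one. The first was not so separated when peaks had to cover 50% of the region or reach a −log10 q of 2, nor among the strongest 50000 peaks. The second was not when peaks had to cover 50% of the region, nor among the strongest 50000.

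The number of regions with a peak in a window did not differ by genotype beyond the spread. Over the 10 genes together it was 85 ± 9.59 for WT libraries, 85.3 ± 11.2 for P300KO, 88 ± 11.4 for TET2KO and 91 ± 7.44 for P300KO_TET2KO (mean ± SD, n = 4). By limma over 20221 protein-coding genes, 0 of 10 were called in each genotype contrast, where 0.00495% of genes were called in P300KO_TET2KO against TET2KO and over both backgrounds and 0% in the other 3. An unadjusted p under 0.05 was reached by 2 genes in P300KO_TET2KO against TET2KO, 1 in TET2KO against WT, 1 over both backgrounds and 0 in the other 2, where 1414, 1869 and 1976 of all 20221 genes reached it in the first 3. No exact permutation p was under 0.05 in the single contrasts. The Maff window had the lowest limma p: 5, 5, 8 and 8 regions in P300KO_TET2KO and 7, 6, 10 and 11 in TET2KO, a difference of -2 ± 0.69 regions (SE, limma adjusted p = 0.617, exact permutation p = 0.314). Permuted within sets the exact p was 0.0556, the smallest that test can give.

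The rank of many of these regions differed between the deposit sets. Of the 53 regions, 28 differed between set 2 and set 1 (52.8%), where 35.8% of all shared regions did. Of these, 21 were weaker in set 2 (39.6%, against 18.4% of all regions) and 7 stronger (13.2%, against 17.4%). The median difference of the 53 was -0.27 (0.00 over all regions), and 36 had an unadjusted p under 0.05 (67.9%, against 45.4% of all). Among all shared regions within 1 kb of a protein-coding start, 26.4% were weaker and 11.4% stronger, with a median of -0.12. Of the 21 such regions in the 10 windows, some at starts of neighbouring genes, 10 were weaker and 2 stronger, with a median of -0.33. Of the 14 shared regions within 1 kb of a start of the 10 genes themselves, 7 were weaker and 0 stronger, with a median of -0.34. Among regions more than 3 kb from any start, 12% of all were weaker and 22.2% stronger, with a median of 0.08, and of the 24 in the 10 windows 6 were weaker and 5 stronger, with a median of -0.19. Longer lists, the marker peaks given above and the deposit set moved together, and their part in these differences was not tested.

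All 10 promoter regions had a negative difference in set 2, as did 9310 of the 15187 shared regions within 1 kb of a protein-coding start. Of the 10, 3 passed, a share close to the 26.4% of all regions near protein-coding starts that were weaker. The mean difference at Fos was negative in each of the 4 genotypes, at -0.65 (WT), -0.67 (P300KO), -0.49 (TET2KO) and -0.29 (P300KO_TET2KO). Over all genotypes the Fos difference was -0.53 ± 0.11 (adjusted p = 0.000997). When set labels were permuted exactly inside each genotype, p was 0.00154, the smallest that test can give. Maff fell by 0.52 ± 0.13 on the −log2 rank scale (adjusted p = 0.00404, exact permutation p = 0.00154) and Fosb by 0.38 ± 0.15 (adjusted p = 0.0456, exact permutation p = 0.0293). The Fosb call was lost in 13 alternatives, with limma adjusted p of 0.0501 to 0.114, among them the replicate block (0.0533), regions in at least 8 lists (0.0501) and 11 of the 16 fits that left out 1 library. The libraries concerned were WT replicates 2, 3 and 4, P300KO replicates 1, 2 and 4, TET2KO replicates 1 and 4, and P300KO_TET2KO replicates 1, 3 and 4. The remaining 7 ran from -0.05 ± 0.12 for Batf to -0.43 ± 0.17 for Jun (adjusted p = 0.0563).

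Most regions weaker in set 2 lay at Fosb, Junb, Fos and Maff. Of the 10 shared regions of Fosb 7 were weaker and 0 stronger. Of 8 at Junb 5 were weaker and 1 stronger, of 8 at Fos 3 and 1, and of 4 at Maff 3 and 1. Batf and Jund (of 7 and 4 regions) had 1 in each direction. Jun had 1 weaker of 2, Fosl2 0 of 2, and Batf3 and Atf3 each 1 stronger and 0 weaker, of 3 and 5. The Atf3 region called, 16546 bp into the gene (adjusted p = 0.0436), lost its call in 11 alternatives, with adjusted p of 0.0569 to 0.104. These were regions in at least 8 lists and the fits without WT replicate 1, 3 or 4, TET2KO replicate 1, 3 or 4, or any 1 of the 4 P300KO_TET2KO libraries. With peaks ranked by fold enrichment the difference at this Atf3 region turned negative.

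At some regions the sets did not overlap, and at others they did. At the region 7182 bp upstream of Junb (chr8:84985260-84986539, intergenic) the rank ran from 6174 to 10205, with a median of 8552, in set 1 and from 12453 to 15785, with a median of 13688, in set 2. The sets stood apart, and the difference was -0.76 ± 0.11 (adjusted p = 2.2e-05). At 2 regions upstream of Fosb, 16544 and 17186 bp from its start, the differences were -0.69 ± 0.11 and -0.71 ± 0.12 (adjusted p of 5.72e-05 and 0.000112), and at the second the rank ran from 17022 to 27617 in set 1 and from 31111 to 44557 in set 2. At the first the sets touched, with a weakest rank of 22732.5 in set 1 and a strongest of 22611 in set 2. A region 9132 bp from the Fosb start, over a start of Gm26802, differed by -0.70 ± 0.11, and a region 9118 bp from the Junb start, over a start of Gm49661, by -0.70 ± 0.11, both without overlap. A region in an exon of Maff, 10924 bp from its start, differed by -0.62 ± 0.13, with sets that overlapped between ranks of 17829 and 20822. The largest difference among the 53, again with overlapping sets, was at the promoter of the neighbour Pla2g6, a phospholipase gene, 18654 bp upstream of Maff, at ranks of 167 to 1095 in set 1 and 566 to 1569 in set 2 (-1.48 ± 0.38, adjusted p = 0.00445).

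Distal elements also moved the other way. The region 18456 bp upstream of Fos ran from 1098 to 3925 in set 1 and from 699 to 1740 in set 2 and was stronger in set 2 by 0.77 ± 0.23 (adjusted p = 0.0122), in a locus whose promoter was weaker. By genotype the difference was 1.54 (WT), -0.04 (P300KO), 0.99 (TET2KO) and 0.59 (P300KO_TET2KO), and over all of them it was 0.60 without WT replicate 1 (adjusted p = 0.0232). With peaks ranked by fold enrichment this region was weaker in set 2, by -0.88 (adjusted p = 0.000651). The region upstream of Maff that was lower without p300 was stronger in set 2 by 0.66 ± 0.11 (adjusted p = 0.000149), and its 2 sets overlapped only between ranks of 10935 and 11967. The Nsl1 exon region in the Batf3 window was stronger by 0.62 ± 0.12, and a region 24240 bp downstream of the Batf start by 0.61 ± 0.20. With ranks by fold enrichment the calls upstream of Maff (0.25, adjusted p = 0.183) and at the Nsl1 exon (0.32, adjusted p = 0.341) were lost. Ranking by fold enrichment moved the split of calls from 21 weaker and 7 stronger to 40 and 5 of 53, with the median of all regions shifted by -0.23 and 42.1% of all regions weaker. With regions in at least 8 lists the split was 20 weaker and 14 stronger of 81, where 12.6% of all regions were weaker and 16% stronger.

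**Figure D4:**
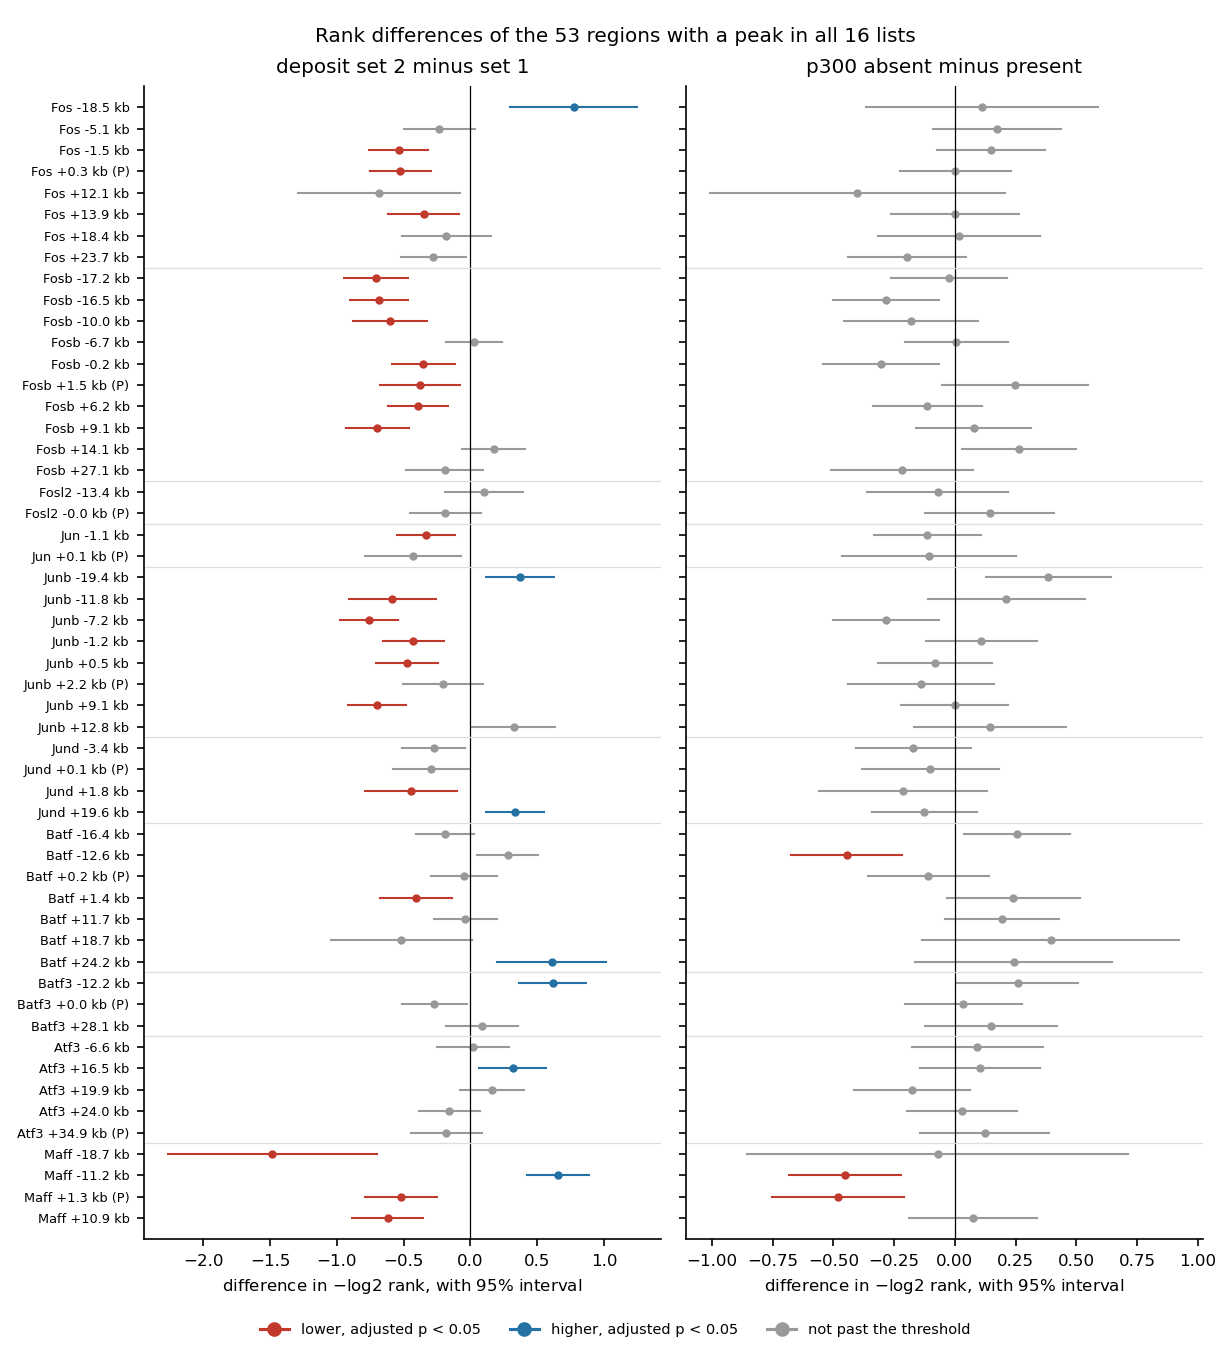
Difference in −log2 rank with its 95% interval (x axes, different scales) for the 53 regions (y axis, gene and distance of the region's centre from the most upstream start, P for the promoter region), between deposit sets on the left and for p300 loss on the right. On the left 21 regions are weaker (red) and 7 stronger (blue) in set 2, and on the right 3 are weaker without p300.

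More regions were detected in set 2, whose lists were longer. The 10 windows together held 79.6 ± 5.88 regions in set 1 and 95 ± 4.07 in set 2 (mean ± SD, n = 8), at 72 to 87 and 90 to 101. By limma 7 of 10 genes had more regions in set 2, Fos, Fosb, Jun, Junb, Batf3, Atf3 and Maff, where 57.1% of all genes differed. The largest difference was at Maff, from 5.75 ± 0.89 to 8.5 ± 1.51 regions (2.75 ± 0.49 SE, adjusted p = 0.000407). Fosl2 had 5.5 regions in either set. Among the strongest 50000 peaks 1 of 10 genes differed, and without TET2KO replicate 2 the number was 4. The share over all genes is not given for these 2 settings, so the lower numbers are not read as a result about the 10 genes. Regions with a peak in 8 of 8 libraries of set 2 and 0 of 8 of set 1 numbered 2 of 171, 1 within Junb (3084 bp from the start) and 1 within Maff (4470 bp from the start), where 0.914% of all regions were so separated. No region had a peak in 8 of 8 libraries of set 1 and 0 of 8 of set 2.

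**Figure D5:**
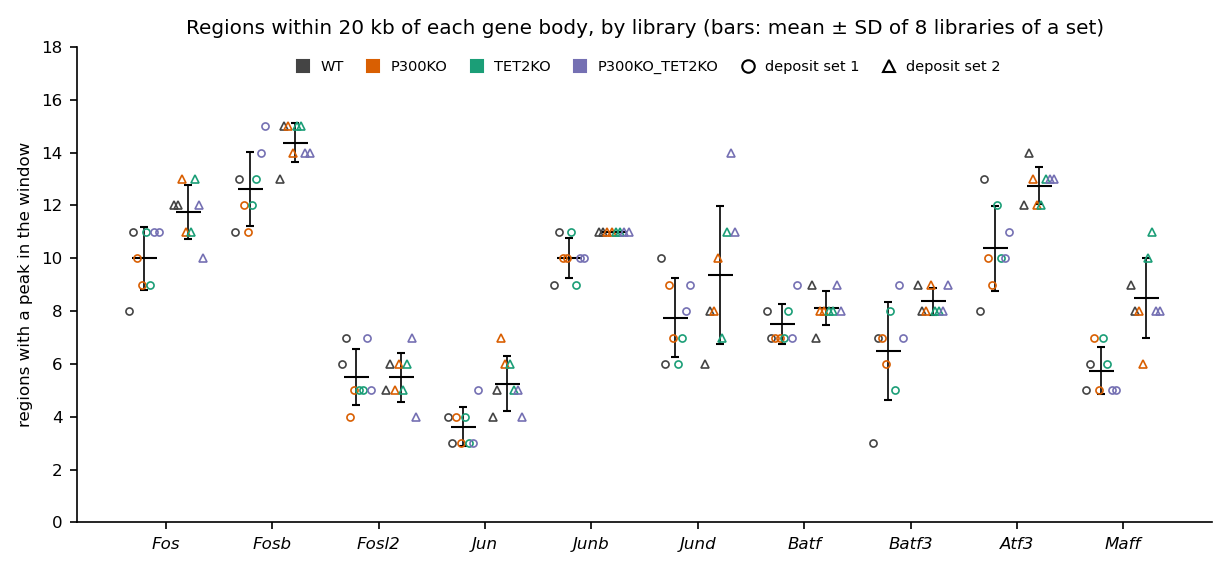
Number of regions with a peak in the window of each gene (x axis) in each library (y axis), with genotype as colour, deposit set as symbol, and the mean and SD of the 8 libraries of a set. Maff rises from 5.75 to 8.5 regions and Fosl2 stays at 5.5, while the colours are mixed within each set.

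Other genes of the same response were compared through their promoter regions. Of 53 other early-response genes 52 had a promoter region in all 16 lists, the exception being Ccn1 with 15. Between the sets 25 of the 52 were weaker in set 2 and 2 stronger, with a median of -0.34, against 26.4% weaker and 11.4% stronger among all shared regions near protein-coding starts. The weaker ones with the lowest adjusted p were Id1, an inhibitor of helix-loop-helix factors (-0.91 ± 0.13), Tnfaip3, an NF-κB feedback inhibitor (-1.31 ± 0.18), and Cebpb (-0.86 ± 0.12), and the zinc-finger gene Egr1 was also weaker (-0.35 ± 0.11, adjusted p = 0.0171). The 2 stronger were Phlda1 (0.45 ± 0.16) and the chaperone gene Hsp90aa1 (0.39 ± 0.14). Of 22 other AP-1, ATF and MAF family genes 7 were weaker, led by Maf (-0.80 ± 0.11) and Fosl1 (-0.85 ± 0.12), and 2 stronger, Crem and Bach1, with a median of -0.10. Of 20 upstream kinases, ternary complex factors and serum response factor, 4 were weaker and 4 stronger, with a median of -0.13, and Srf itself differed by 0.00 ± 0.19. For p300 loss the family and kinase lists had 0 calls, and among the early-response genes 1 was weaker, Hes1, a Notch target (-0.51 ± 0.11, adjusted p = 0.0152), where 0.672% of all shared regions near protein-coding starts were lower. No promoter of these 3 lists was called in any single genotype contrast.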

How the data were processed

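ATAC-seq peak lists of 16 HSPC libraries were used. Per the labels and the study's methods, the authors trimmed reads with cutadapt 1.9.1, aligned them to mm10 with Bowtie2 2.2.6, removed duplicates, shifted reads for the transposase and called peaks per library with MACS2 2.1.0. The deposited lists give each summit's fold enrichment, a ratio to local background, and the authors' −log10 p and −log10 q. Summits of 1 interval were counted as 1 peak with its best −log10 p, and peaks were ranked within a list, since values are not comparable as signal between lists. Genes and starts came from GENCODE M21.

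Regions with a peak in all 16 lists were fitted with limma 3.58.1 (trend) on −log2 rank, with genotype and deposit set as terms and Benjamini-Hochberg adjustment over all 39310 regions. Window counts were fitted likewise over 20221 genes, and gained or lost regions were counted without a test. On simulated data the fit was checked before use. Exact permutation tests were two-sided. No p-value says more than the spread between pooled libraries. The 4 genotype contrasts share libraries. Alternatives were other rankings, a minimum −log10 q of 2, the 50000 strongest peaks, 50% of a region covered, a 10 kb window, no set term, a replicate block and leaving out each library. Separate promoter and distal backgrounds, the exact tests of window counts and the permutation of set labels were added after seeing the data. Named regions were each gene's promoter and strongest distal region, those gained, lost or called (at most 10 per contrast by size), and of other lists up to 3 per direction by adjusted p. Egr1, Srf, the regions near the Atf3, Fosb and Junb starts, the Batf promoter beside its upstream region and those called under 1 alternative were named after their values were seen. The genes and lists were chosen with earlier results of these data known. Work was done in R 4.3.3 and Python 3.11.15. Depth is unknown, so no counting interval is given. A marker gene and a sequence window are not reported here.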

Additional observations from a re-analysis of the deposited data

Results flagged for a closer look

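Among 116 groups of 4 libraries, 8 held a library set far from the other 3, of which 2 were on ranks. By rank, the intronic Batf region stood at 734 in P300KO replicate 1, against 3013 to 3836 in the other P300KO libraries, and the strongest distal Atf3 region at 37952.5 in WT replicate 1, against 24057 to 25715. By number of regions in a window, Fosb had 15 in P300KO_TET2KO replicate 2, Fosl2 had 6 in TET2KO replicate 4, Junb had 9 in WT replicate 1 and 9 in TET2KO replicate 2, Batf had 7 in TET2KO replicate 1 and Batf3 had 5 in TET2KO replicate 2. The other 3 libraries of these groups had the same number of regions as each other, and the 1 that differed did so by 1 to 3 regions. With such ties a difference of 1 region was flagged, so no rate expected by chance is given. No effect of p300 was shown to differ between Tet2 backgrounds.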

How the results depend on the processing

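The 3 regions called for p300 loss became 1 with peaks ranked by fold enrichment, 1 with regions in at least 8 lists, 1 with the 10 kb window, which holds fewer regions, and 0 without the set term, and ranged from 0 to 3 when 1 library was left out. Ranking by fold enrichment called 1 region in P300KO_TET2KO against P300KO, downstream of Jund, and 45 regions between the sets. The latter were 18 in the 10 kb window and 24 to 31 with 1 library left out. At 2 regions that ranking turned the set difference, to -0.88 upstream of Fos and -0.081 at the strongest distal Atf3 region. P300KO against WT had 0 to 1 calls with 1 library left out. Genes with more regions in set 2 were 1 with the strongest 50000 peaks, 4 with the 10 kb window, and 4 to 7 with 1 library left out, without the share over all genes beside them. Gained or lost regions under the looser rule (3 of 4 against 1 of 4, or 6 of 8 against 2 of 8) were 5 in P300KO_TET2KO against TET2KO, 2 in TET2KO against WT, 2 in P300KO_TET2KO against P300KO and 7 between the sets. With the strongest 50000 peaks they were 1 in P300KO_TET2KO against TET2KO and 0 in P300KO against WT, in P300KO_TET2KO against P300KO and between the sets. With 50% of a region covered they were 0 in P300KO against WT and in P300KO_TET2KO against P300KO, and with a −log10 q of at least 2 or a 10 kb window they were 0 in P300KO against WT. With 1 library left out they ranged from 1 to 2 in P300KO_TET2KO against P300KO and from 2 to 3 between the sets. The share of all regions gained or lost under these other rules is not given here. The counts are therefore not read as a result about the 10 genes. Exact tests gave 0 unadjusted calls where limma gave 1 to 3. The cause was not tested.

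With the replicate number as a block, 2 regions were called for p300 loss and 26 between the sets. Same-numbered libraries deviated together from their genotype means (correlations of 0.20 to 0.50), but no more than other libraries of the same set (0.21 to 0.48), and beyond the set the correlations were -0.16 to 0.07, so that the numbers were read as marking the set alone. The permutation within sets cannot go below 0.0556, so it gave no call. Read depth is unknown, so its part in which weakly ranked regions have a peak was not tested.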

Other observations

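Across all shared regions more than 3 kb from any start, the 1753 that hold TGACTCA within 300 bp around their summit had a median set difference of 0.12 in −log2 rank, and the 16809 without it had 0.08. Of the former 27.1% were stronger and 10.7% weaker in set 2, and of the latter 21.7% and 12.2%. For p300 loss 4.62% of the former and 3.74% of the latter were called, with medians of 0.02 in both. These values were looked at after the data were seen and carry no test.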
